A study of Mus musculus with 4 samples.

Results

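The brakes and engines of the G1 phase of the cell cycle were examined in B16-F10, a mouse melanoma cell line. The 10 genes were the INK4 inhibitors Cdkn2a, Cdkn2b and Cdkn2c, the CIP/KIP inhibitors Cdkn1b and Cdkn1c, the retinoblastoma gene Rb1, the kinases Cdk4 and Cdk6, and the D-type cyclins Ccnd1 and Ccnd2. They were chosen by name, and each probe that carried a RefSeq accession of these genes was taken, which gave 18 of the 56605 probes of the array. Control cultures (2 arrays) received no added protein, and Cdh1 cultures (2 arrays) received recombinant Cdh1 at 100 ng/mL for 24 h. Cdh1 is the mouse symbol of the E-cadherin gene, and the labels name the protein by that symbol alone. All 4 cultures were of this single cell line, with no genetic change given in the labels, and were kept in medium with 10% fetal bovine serum. They formed 2 independent sets of 1 control and 1 Cdh1 culture. What else set 2 and set 1 differed in is not given in the sources used here.

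Passage through G1 depends on kinase complexes of CDK4 or CDK6 with a D-type cyclin. These complexes phosphorylate the retinoblastoma protein, which otherwise holds back E2F transcription factors and with them the genes of DNA synthesis. INK4 proteins bind the kinases and keep D-type cyclins away, while CIP/KIP proteins bind whole cyclin-kinase complexes and act most strongly on CDK2. Cdkn2a encodes INK4A and, from another first exon, ARF, which protects p53, and loss of this gene is a known route to familial and sporadic melanoma.

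The chromosome 4 brakes Cdkn2a and Cdkn2b were not detected in these cells while Cdkn2c was. The 250 bases before annotated starts of these genes are therefore shown, from the RefSeq table of assembly GRCm38.p6. All are on the minus strand. The windows are chr4:89294620-89294869 (upstream start of Cdkn2a), chr4:89282193-89282442 (downstream start of Cdkn2a), chr4:89311033-89311282 (Cdkn2b) and chr4:109666757-109667006 (Cdkn2c, upstream start). Capitals mark a match to the E2F motif TTTNNCGC, searched on both strands.
Cdkn2a upstream start: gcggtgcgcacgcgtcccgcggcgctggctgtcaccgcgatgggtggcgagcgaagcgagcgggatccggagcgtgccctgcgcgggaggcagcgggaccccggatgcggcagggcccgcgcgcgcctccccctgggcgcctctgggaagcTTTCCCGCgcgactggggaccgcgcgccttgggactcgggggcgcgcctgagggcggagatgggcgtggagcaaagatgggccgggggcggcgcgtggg
Cdkn2a downstream start: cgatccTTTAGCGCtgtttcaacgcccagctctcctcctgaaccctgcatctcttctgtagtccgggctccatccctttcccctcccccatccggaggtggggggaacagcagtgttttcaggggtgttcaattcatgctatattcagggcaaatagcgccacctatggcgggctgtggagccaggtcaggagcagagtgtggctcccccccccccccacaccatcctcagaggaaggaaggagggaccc
Cdkn2b: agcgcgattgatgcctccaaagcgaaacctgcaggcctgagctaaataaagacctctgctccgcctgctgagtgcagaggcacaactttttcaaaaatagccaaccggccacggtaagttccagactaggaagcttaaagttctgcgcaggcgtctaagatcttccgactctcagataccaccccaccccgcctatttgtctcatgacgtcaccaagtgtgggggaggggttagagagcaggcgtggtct
Cdkn2c upstream start: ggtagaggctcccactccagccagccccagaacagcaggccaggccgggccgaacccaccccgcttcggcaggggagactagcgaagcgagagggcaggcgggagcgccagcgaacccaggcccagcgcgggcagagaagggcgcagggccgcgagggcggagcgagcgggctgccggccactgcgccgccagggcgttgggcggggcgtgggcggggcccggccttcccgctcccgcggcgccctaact
The upstream Cdkn2a window held 40 CG dinucleotides and was 78.4% G or C. The upstream Cdkn2c window held 29 CG dinucleotides at 77.2% G or C. The downstream Cdkn2c window, not printed, held 6 at 42.8% G or C. The Cdkn2b window and the downstream Cdkn2a window held 12 and 7. Over the 32851 windows of the table the median was 6 and the upper quartile 16. CG-rich windows thus stood before the upstream starts of both the undetected Cdkn2a and the detected Cdkn2c, and not before the downstream starts. The E2F motif started 99 bases before the upstream Cdkn2a start and 244 bases before the downstream one, and was absent from the printed Cdkn2b and Cdkn2c windows. Among windows not printed, the motif also started 198 bases before the detected gene Cdk6 and was absent before Cdkn1b and Cdk4. It was present in 4.28% of all windows. The GC box GGGCGG (or CCGCCC on the other strand), which does not overlap the E2F motif in these windows, occurred 2 times before the upstream Cdkn2a start and 3 times before Cdkn2c. It occurred in neither of the other printed windows, nor in the downstream Cdkn2c window, and in 32.7% of all windows. A match describes the letters only and shows no binding.

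Signal is given first as the deposited processed intensity, a brightness in arbitrary units. Between 59.29% and 61.33% of the 59305 non-control spots of an array were well above background, the scanner's flag for a spot that clearly exceeds its local background. On each array, 308 negative control spots, which match no transcript, had a 95th percentile between 2.37 and 3.15, and the lowest signal flagged as well above background lay between 9.38 and 12.71. All 7 melanocyte markers examined (Pmel, Tyr, Tyrp1, Dct, Mlana, Mitf and Sox10) were well above background on all 4 arrays. The leukocyte markers Ptprc and Adgre1, the fibroblast markers Dcn and Lum, the keratinocyte markers Krt1 and Krt10 and the endothelial markers Cdh5 and Kdr were well above background on none. In RNA of whole cultures, fewer cells that make a transcript and less transcript per cell cannot be told apart.

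Both INK4 genes of the shared chromosome 4 locus were without detectable signal, and the other 8 genes were detected. Of the 18 probes, 14 were well above background on all 4 arrays and the other 4, which were the probes of Cdkn2a and Cdkn2b, on none. Over the whole array, 55% of probes were well above background on all 4 arrays. The first Cdkn2a probe (NM_009877) read 2.29 (control) and 2.05 (Cdh1) in set 1, and 2.06 (control) and 2.74 (Cdh1) in set 2. Its second probe read 2.11, 1.90, 1.93 and 2.59 in the same order. The highest reading of each was on the Cdh1 array of set 2, where the median negative control spot was also highest, at 2.88 against 2.14 to 2.40 on the other arrays.

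Cdkn2b encodes INK4B, an inhibitor induced by TGF-beta in many cell types. Its first probe (NM_007670) read 2.32 (control) and 2.07 (Cdh1) in set 1, and 2.10 (control) and 2.77 (Cdh1) in set 2, and its second probe read 2.32, 2.09, 2.09 and 2.74. All 16 readings of the 4 probes lay below the 95th percentile of the negative control spots of their own array. No fold change between groups is given for these genes, since neither group was above background. The accession on the Cdkn2a probes is that of the ARF transcript. No probe carried the accession of the INK4A transcript, and where on the transcript the probes lie is not given in the sources used here, so the readings speak for ARF and not separately for INK4A.

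**Figure D1:**
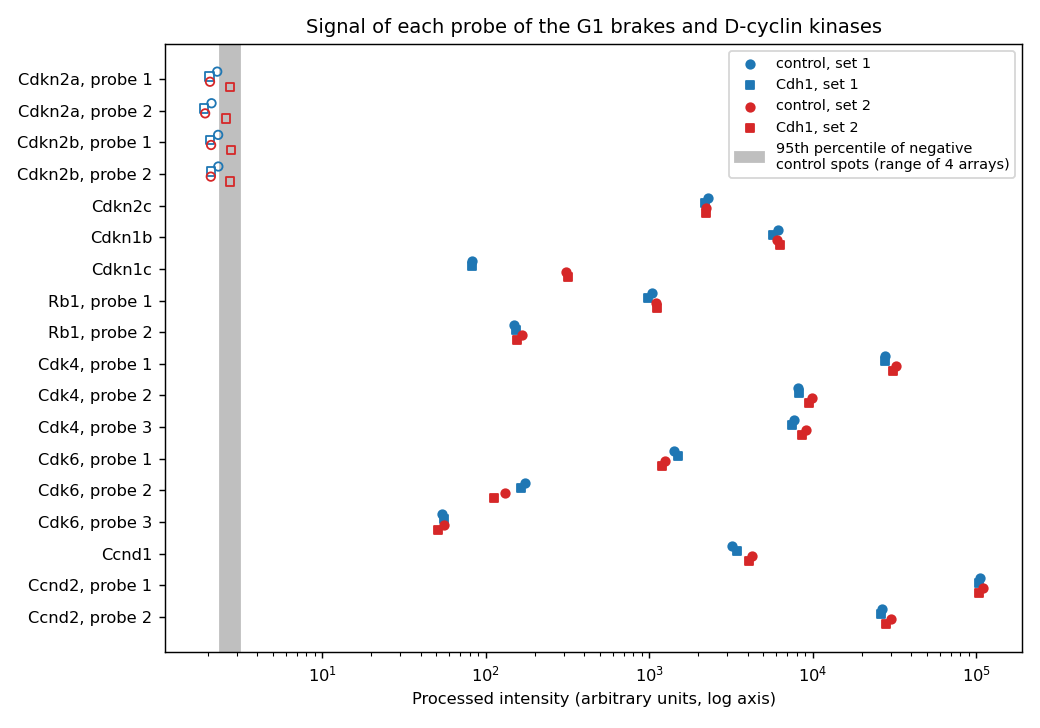
Processed intensity (arbitrary units, log axis) of each of the 18 probes on each of the 4 arrays. Circles are control and squares Cdh1 arrays, blue is set 1 and red set 2, and open symbols mark probes not well above background. The 4 probes of Cdkn2a and Cdkn2b sit between 1.90 and 2.77, at the level of negative control spots (grey), and the Cdkn1c probe shows the widest gap between the sets, near 83 in set 1 and 308 to 319 in set 2.

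The signal around the undetected pair was uneven along the chromosome. In the order of the RefSeq gene table, Mtap, which encodes an enzyme of methionine salvage and is often lost together with CDKN2A in human tumours, lies on one side and Dmrta1, a gene of the DMRT transcription factor family, on the other. The Mtap probe (NM_024433) read 5474 (control) and 5550 (Cdh1) in set 1, and 6926 (control) and 6921 (Cdh1) in set 2, well above background on all 4. The Dmrta1 probe (NM_175647) read between 2.33 and 3.11 and was well above background on none. Further genes were looked at after these values were seen. The Wincr1 probe, beyond Mtap, read between 2.35 and 3.13 and was well above background on no array. Of 3 Zfp352 probes, beyond Dmrta1, 1 was well above background on all 4 arrays, 1 on none and 1 on some. The genes between these carried no probe with a matched accession. RNA readings do not show whether the DNA of the locus is present.

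**Figure D2:**
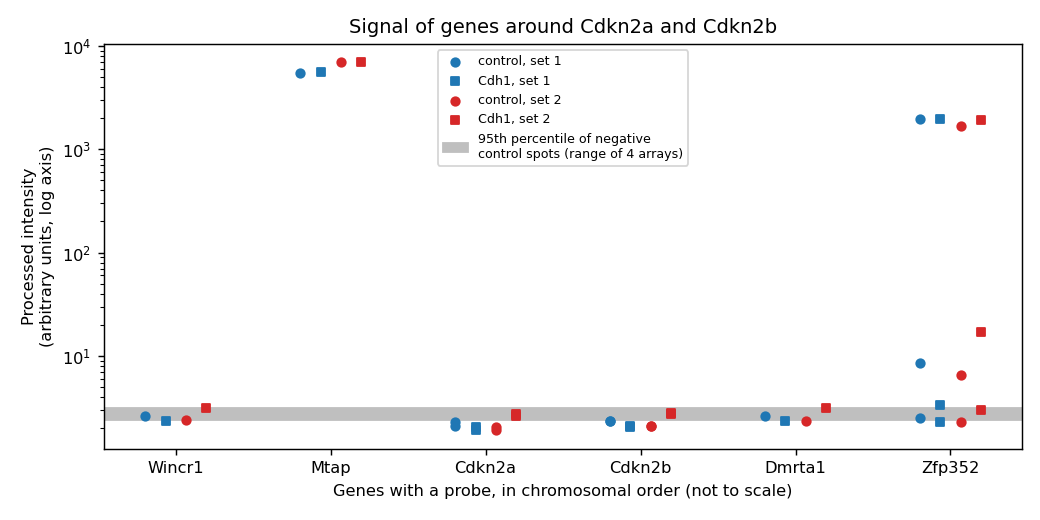
Processed intensity (arbitrary units, log axis) of the probes of 6 genes around Cdkn2a and Cdkn2b, in chromosomal order and not to scale, with 1 symbol per probe and array (circles control, squares Cdh1, blue set 1, red set 2). Mtap reads between 5474 and 6926, whereas Cdkn2a, Cdkn2b and Dmrta1 lie in or near the grey band of negative control spots.

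For the 8 detected genes, levels are log2 of the intensity relative to the 75th percentile of the same array, so 0 is that percentile and a difference of 1 is a doubling. A level depends on the probe as well as on the transcript, so levels are compared between arrays and not between probes. Differences were tested with limma over all probes that passed the background flag on the 2 arrays of either group compared, with Benjamini-Hochberg adjustment over all of them and a threshold of 0.05. With 2 arrays against 2, an exact two-sided permutation test of a single value cannot give a p below 0.333.

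Among the detected brakes, Cdkn1c stood apart between the sets and the others did not pass the test. Cdkn1c encodes an imprinted CIP/KIP inhibitor that restrains growth during development. Its single probe (NM_001161624) had an intensity of 82.8 (control) and 82.8 (Cdh1) in set 1, and 308.2 (control) and 319.1 (Cdh1) in set 2. Both arrays of set 2 were far above both arrays of set 1, and within each set the treatments were nearly level. The mean level was -2.79 ± 0.01 (SD, n = 2) in set 1 and -0.98 ± 0.05 (SD, n = 2) in set 2, a difference of 1.81 (SE 0.06, 95% interval 1.65 to 1.97), or 3.50-fold. The difference passed the test (limma, Benjamini-Hochberg adjusted p = 0.0062) and was 1.76 among control cultures and 1.85 among Cdh1 cultures. A difference at least as large in either direction was seen for 0.369% of the probes well above background on every array.

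The Cdkn1c call held with treatment as a block (limma, adjusted p = 0.0329). It was lost when any of 3 arrays was left out, with an adjusted p of 0.0821 without control set 1, 0.0597 without Cdh1 set 1 and 0.0604 without Cdh1 set 2 (limma), while the difference itself stayed between 1.77 and 1.84. It was also lost without the filter on dim probes (limma, adjusted p = 0.0743). With normexp background correction and quantile normalization together, the call held (limma, adjusted p = 1.12e-05) but the difference was smaller, at 1.35. The size of the difference thus depended on the processing.

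Cdkn2c encodes INK4C, an INK4 inhibitor that was detected here. Its levels (NM_007671) were 2.01 (control) and 1.93 (Cdh1) in set 1, and 1.84 (control) and 1.85 (Cdh1) in set 2. The set 2 arrays were both below the set 1 arrays, by 0.13 (difference -0.13, limma adjusted p = 0.212), which did not pass the test. Such a lack of overlap was seen on 67.5% of all probes well above background on every array. Cdkn1b encodes KIP1, which binds cyclin E complexes with CDK2 and accumulates in resting cells. Its levels (NM_009875) were 3.43, 3.30, 3.28 and 3.36 in the same order, so the sets overlapped (difference -0.04, limma adjusted p = 0.693).

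Rb1, the target of the D-cyclin kinases, was detected by both of its probes (NM_009029). The first read 0.88 (control) and 0.77 (Cdh1) in set 1, and 0.83 (control) and 0.86 (Cdh1) in set 2, and the second -1.94, -1.91, -1.91 and -1.99. On both probes the arrays of set 2 lay within or across the range of set 1, with differences of 0.02 and -0.02 (limma adjusted p = 0.877 and 0.820).

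Between the sets, Cdk4 did not pass the test on any probe and Cdk6 did on 2 of 3. Cdk4 was detected by 3 probes (NM_009870), and the brightest had levels of 5.61 (control) and 5.59 (Cdh1) in set 1, and 5.69 (control) and 5.65 (Cdh1) in set 2. The second read 3.83, 3.83, 3.98 and 3.94, and probe 3 gave 3.76, 3.69, 3.87 and 3.80. On all 3 probes set 2 was above set 1 without overlap, but by only 0.07, 0.13 and 0.11, and none passed the test (limma adjusted p = 0.390, 0.170 and 0.274). Of all probes well above background on every array, 67.5% had sets without overlap.

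Cdk6, the other kinase partner of D-type cyclins, fell on 2 of its 3 probes in set 2 relative to set 1 (NM_009873). The first read 1.33 (control) and 1.38 (Cdh1) in set 1, and 1.01 (control) and 0.96 (Cdh1) in set 2, a difference of -0.37 (SE 0.06, limma adjusted p = 0.0333), or 1.29-fold lower. The second read -1.71, -1.81, -2.24 and -2.45, a difference of -0.58 (SE 0.10, limma adjusted p = 0.0388). Probe 3, the dimmest, read -3.40, -3.38, -3.49 and -3.58 and its difference of -0.15 did not pass (limma adjusted p = 0.178). All 3 probes had both set 2 arrays below both set 1 arrays. The sets did not overlap on 67.5% of all probes well above background on every array.

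The Cdk6 calls were lost with treatment as a block, at adjusted p = 0.0753 and 0.0504 for the first and second probe (limma). For the first probe the call was also lost when any of the 4 arrays was left out (limma, adjusted p 0.129 to 0.165), without the filter on dim probes (0.186) and with median centring of the arrays (0.0617). The difference stayed between -0.39 and -0.33 under all settings tried.

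The D-type cyclins, which activate these kinases, were not called. Ccnd1 (NM_007631), the D-type cyclin most often linked to growth factor signalling, read 2.50 (control) and 2.59 (Cdh1) in set 1, and 2.77 (control) and 2.72 (Cdh1) in set 2. Set 2 was above set 1 by 0.21 (SE 0.06, limma adjusted p = 0.106), without overlap, as for 67.5% of probes well above background on every array in either direction. Ccnd2 (NM_009829) was detected by 2 probes, the first reading 7.53, 7.50, 7.47 and 7.40 and the second 5.54, 5.51, 5.59 and 5.52. Their differences of -0.08 and 0.03 had opposite signs and did not pass the test (limma adjusted p = 0.379 and 0.769).

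Across the family, 3 of the 14 detected probes passed the test between sets, of Cdkn1c and Cdk6, beside 15.5% of the 32958 probes tested. With treatment as a block, 1 of 14 passed, that of Cdkn1c, beside 6.57% of probes. The sets did not overlap on 10 of these 14 probes, all well above background on all 4 arrays, beside 67.5% of the 31158 probes that were flagged so on every array. The count of members was thus close to the background in each case. It was the size of the Cdkn1c difference that few other probes flagged on every array matched. The median difference of the 14 probes was -0.003, and that of all probes tested was -0.001. The number of calls rested on all 4 arrays together: with any 1 array left out, 0 or 1 of the 14 probes and 0 to 706 probes of the array passed.

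Some melanocyte markers also differed between the sets. Of the 7 markers, 3 were lower in set 2, beside 11.5% of all genes tested. These were Tyr (-1.77, limma adjusted p = 0.0078), Pmel (-0.42, adjusted p = 0.0280) and Mitf (-0.39, adjusted p = 0.0399). The other 4 did not pass. Tyrp1 (-0.15), Dct (-0.12) and Mlana (-0.21) had negative differences, and Sox10 went the other way (0.20, limma adjusted p = 0.0858). With treatment as a block, Tyr stayed past the threshold (limma, adjusted p = 0.0369) and Pmel (0.0621) and Mitf (0.0786) did not. The summed intensity of the 7 lay between 873147 and 880861 in set 1 and between 811994 and 823869 in set 2. Of 4 fibroblast markers, the dim Col1a1 and Pdgfra were also lower in set 2 (limma, adjusted p = 0.0216 and 0.0340, with the block 0.0463 and 0.0758), and the summed intensity of that list was 78 and 80 in set 1 and 54 and 50 in set 2. The part of these shifts in the Cdkn1c and Cdk6 differences was not tested.

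No detected brake, kinase or cyclin passed the test between Cdh1 and control cultures. Of the 14 detected probes, 0 passed the test and 0 had an unadjusted p under 0.05 (limma, lowest unadjusted p = 0.577), beside 0% of the 32571 probes tested. Among all probes, 561 had an unadjusted p under 0.05, and the lowest adjusted p was 0.784. Differences, Cdh1 minus control, ran from -0.16 (SE 0.31) for the second Cdk6 probe to 0.02 (SE 0.91) for Cdkn1c, with a median of -0.032 against -0.004 over all probes. The wide error for Cdkn1c, with a 95% interval of -2.53 to 2.58, came with its gap between the sets.

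Within the sets the treated and control cultures were close. The single-set differences of the 14 probes lay between -0.21 and 0.09. Ccnd1 was 0.09 higher with Cdh1 in set 1 and -0.05 in set 2, and Cdkn1b was -0.12 in set 1 and 0.08 in set 2. On 5 of 14 probes the sign was the same in both sets, and all 5 were lower with Cdh1: Cdk4 probes 1 and 3, the second Cdk6 probe and both Ccnd2 probes. The remaining probes, among them the other probes of Cdk4 and Cdk6, had opposite signs in the sets. The share of all probes with the same sign was not computed. Control and Cdh1 arrays did not overlap on 1 of 14 probes, the second of Ccnd2, beside 17.2% of the same 31158 probes.

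Taking the set as a block narrowed the errors and changed no call. SEs of the 14 probes were then 0.059 to 0.083. Of these, 0 had an unadjusted p under 0.05, beside 7.17% of all probes tested, and the lowest adjusted p was 0.76 (limma). Over the 14 probes, the lowest bound of a 95% interval was then -0.37 and the highest 0.25, and several probes had narrower intervals, such as -0.22 to 0.16 for the brightest Cdk4 probe. The second Cdk6 probe had the lowest bound, at -0.16 with an interval of -0.37 to 0.05.

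**Figure D3:**
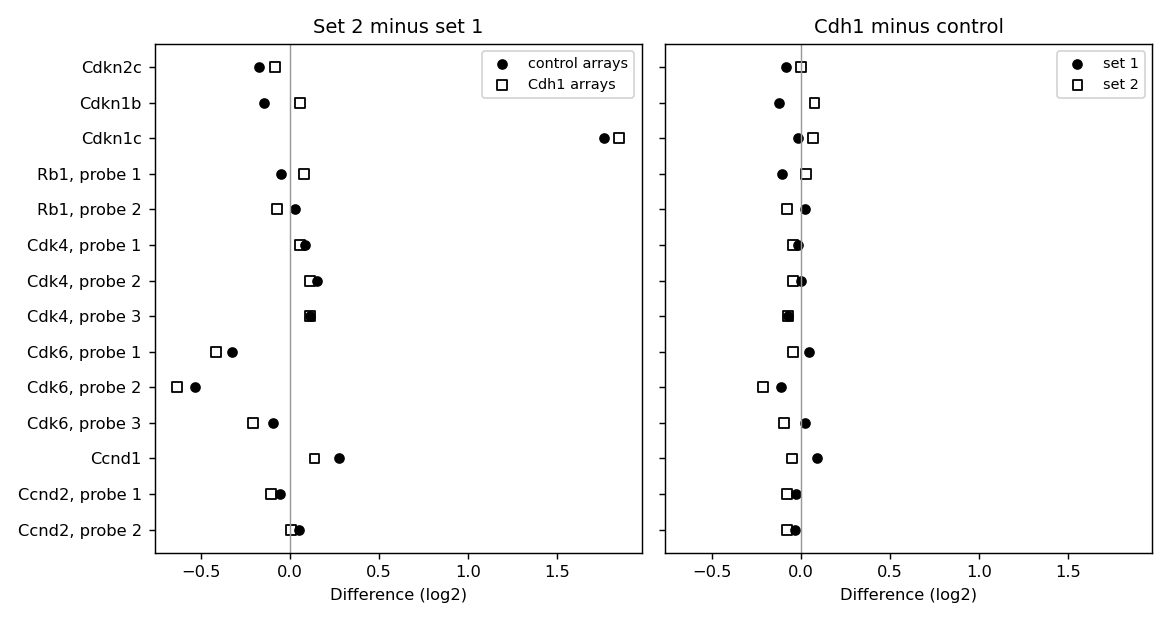
Log2 differences of the 14 detected probes, on the left set 2 minus set 1 in control (filled circles) and Cdh1 arrays (open squares), and on the right Cdh1 minus control in set 1 (filled circles) and set 2 (open squares). Cdkn1c lies at 1.76 and 1.85 on the left, the first and second Cdk6 probes at -0.32 to -0.64, and all points on the right lie between -0.21 and 0.09.

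The rest of the pathway was read from 4 lists, of 70 genes in all, with each gene represented by its brightest probe. Of 14642 genes tested between the sets, 7.54% were higher and 11.5% lower in set 2. Among 15 other G1 cyclins, kinases and inhibitors, all detected on all 4 arrays, 0 were higher and 2 lower in set 2. They were Cdkn1a, the CIP/KIP inhibitor induced by p53 (-0.55, SE 0.07, limma adjusted p = 0.0255), and Cdk2, the partner of cyclins E and A (-0.43, SE 0.05, adjusted p = 0.0235). Cdkn1a levels were 3.95 (control) and 3.90 (Cdh1) in set 1, and 3.31 (control) and 3.44 (Cdh1) in set 2, so this brake was lower in the set in which Cdkn1c was higher. The remaining INK4 gene, Cdkn2d, was detected on all 4 arrays and did not pass (-0.05, limma adjusted p = 0.625), nor did the remaining D-type cyclin, Ccnd3 (0.09, adjusted p = 0.324). The median difference of the list was -0.068, against -0.031 over all genes tested.

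Among 16 RB family and E2F factors, 2 were higher and 0 lower in set 2. E2f1, an activator of S-phase genes, read 0.71 (control) and 0.78 (Cdh1) in set 1, and 1.45 (control) and 1.46 (Cdh1) in set 2 (difference 0.71, SE 0.06, limma adjusted p = 0.0125). E2f2, also an activator, was 0.53 higher (SE 0.07, limma adjusted p = 0.0269). The median of the list was -0.087. Rbl1 and Rbl2, the relatives of Rb1, did not pass (0.29 and -0.29, limma adjusted p = 0.0656 and 0.128).

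Of 20 E2F target genes of S phase, 4 were higher and 0 lower in set 2. They were the replication licensing factor Cdc6 (0.39, limma adjusted p = 0.0346) and the helicase subunits Mcm6 (0.37, adjusted p = 0.0285), Mcm2 (0.32, adjusted p = 0.0376) and Mcm4 (0.32, adjusted p = 0.0460). The median of the list was 0.186, against -0.031 over all genes tested, and 16 of 20 had a positive difference. The share of all genes with a positive difference was not computed.

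Of 20 regulators upstream of the D cyclins and brakes, 18 were tested, and 4 were higher and 2 lower in set 2. Myc, a transcription factor that drives growth, read 0.99 (control) and 1.08 (Cdh1) in set 1, and 2.30 (control) and 2.11 (Cdh1) in set 2 (difference 1.17, SE 0.09, limma adjusted p = 0.0121). The others higher were Id1 (0.57), Ezh2, a histone methyltransferase that represses the INK4 locus in many cells (0.42), and Ets2 (0.33). Tbx2, a T-box repressor of Cdkn2a and Cdkn1a, was lower (-0.41, limma adjusted p = 0.0333), as was Mitf. The Polycomb gene Bmi1, another repressor of the locus, differed by 0.11 (limma adjusted p = 0.238). Mycn and Tbx3 were well above background on no array.

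With treatment as a block, E2f1 (limma, adjusted p = 0.0435) and Myc (adjusted p = 0.0431) stayed past the threshold and the other 12 calls of these lists were lost. With any 1 array left out, E2f1 and Myc were lost as well (limma, lowest adjusted p 0.0709 and 0.0577), and so was Cdkn1a (lowest 0.102).

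**Figure D4:**
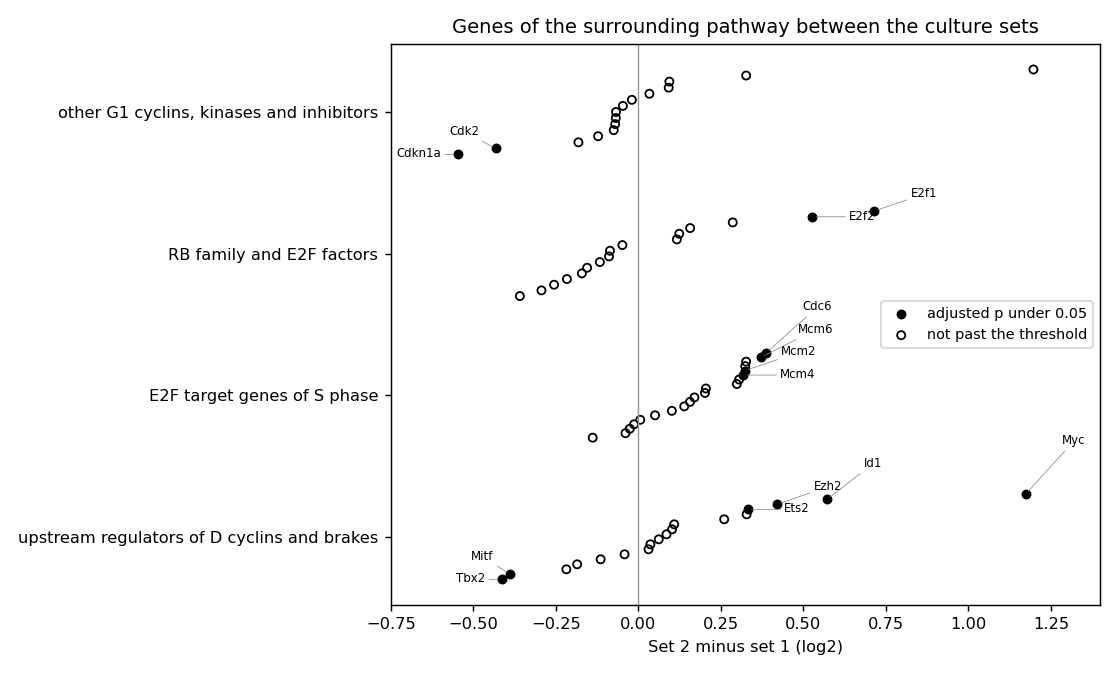
Log2 difference, set 2 minus set 1, of each tested gene of the 4 pathway lists, 1 point per gene, with filled points past an adjusted p of 0.05 (limma) and named. Cdkn1a (-0.55) and Cdk2 (-0.43) lie on the left, and E2f1 (0.71), E2f2 (0.53), Myc (1.17) and 4 E2F target genes (0.32 to 0.39) on the right, while the open point furthest right is Ccne2 (1.20, adjusted p = 0.159).

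Recombinant Cdh1 moved none of these lists past the threshold. In each of the 4 lists 0 genes were called and 0 had an unadjusted p under 0.05 (limma), also with the set as a block. Over all probes tested, 1.72% had an unadjusted p under 0.05 without the block and 7.17% with it (limma). Median differences were 0.0 for the other G1 genes, 0.035 for RB and E2F factors, 0.031 for E2F targets and -0.004 for the upstream regulators, against -0.014 over all genes tested. The named genes are those with the largest difference of each list that had 1 sign in both sets, among genes well above background on every array. The largest positive ones were Ccne2, a dim cyclin E probe, at 0.69 (0.10 in set 1 and 1.28 in set 2) among the other G1 genes, Rbl2 at 0.15 among RB and E2F factors, Ccne1 at 0.09 among E2F targets and Ets1 at 0.09 among the upstream regulators. The largest negative ones were Mnat1 at -0.09, E2f3 at -0.17, Ccna2 at -0.04 and Rnf2 at -0.12 in the same order of lists, and all 8 had an adjusted p of 1 (limma). Foxo4, an upstream regulator above background on 3 of the 4 arrays, differed by 0.48 (0.19 in set 1 and 0.78 in set 2, limma adjusted p = 1). The Ccne2 value rested on the Cdh1 array of set 2, without which it was -0.20.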

How the data were processed

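Per the file headers, the authors read 4 one-colour Agilent arrays, on 1 slide in 1 scan, with Feature Extraction 12.0.3.1, and the deposited processed intensity is background-subtracted but not normalized between arrays. The authors' deposited table of intensity values equals it times 1 factor per array (0.8735 to 0.9304). Here log2 intensity minus the array's 75th percentile was averaged over spots of a probe, without outlier spots. limma 3.58.1 (R 4.3.3) was fitted to probes flagged above background on the 2 arrays of either group (or set), with Benjamini-Hochberg adjustment and no block. Probe accessions were matched to RefSeq symbols (33767 of 56605 probes). The headers name mm9 for the array design, so no coordinates are given for probes or from that gene table. Promoter windows carry the GRCm38.p6 coordinates of their own RefSeq table. Pairing comes from the series' design text, which names the sets. The differences between sets in control and Cdh1 arrays correlated at 0.744 over 31158 probes. The genes, the lists, the test, the alternatives and the row boundary of the array were chosen with earlier results of these data known. The naming rule took all 10 genes, the largest called rise and fall of each list between sets, the largest same-sign rise and fall with Cdh1, undetected list genes, Mtap and Dmrta1. Other called list genes were named after their values were seen. The test was checked on simulated data that held no difference between sets and only changes larger than those of the 10 genes. That check therefore does not cover smaller changes or the Cdh1 comparison beside set differences. Python 3.11.15 and pandas 2.3.3 read the files. The number of arrays limits the precision.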

Additional observations from a re-analysis of the deposited data

How the results depend on the processing

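Under every alternative run, 0 probes were called between Cdh1 and control (limma, main count at an unadjusted p under 0.05 561, range over alternatives 109 to 2335), and 14 of the 18 probes were detected. Between sets, 5098 probes of the array and 3 of the genes' 14 were called. These counts became 9028 and 5 with normexp background correction and quantile normalization together (called the combined setting here), 0 and 0 without the filter on dim probes, 2165 and 1 with treatment as the replicate block, and 11196 and 5 with a trended robust prior. They were 0 to 706 and 0 to 1 with an array left out (706 and 1 without control set 2). Other settings kept both counts within 1.5 times. Fits without an array leave treatments and sets unbalanced.

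Some differences below the threshold changed sign. For Cdh1 against control they were Cdkn2c at 0.00 and Ccna2 at 0.01 with the combined setting, and, with median centring, Cdkn1c at -0.02, Cdk6 at -0.04, Ccnd1 at -0.02 and Mtap at -0.04. Cdk6 was -0.06 as the mean of its probes. For set 2 against set 1, Cdkn1b was 0.01 with quantile normalization alone and 0.01 with the combined setting, Ccnd2 was 0.00 with the combined setting, and Rb1 was -0.00 as the mean of its probes. Leaving out each array in turn, the Cdh1 difference ran from -0.13 to 0.05 for Cdkn2c, -0.09 to 0.05 for Cdkn1b, -0.90 to 0.95 for Cdkn1c, -0.08 to 0.00 for Rb1, -0.07 to 0.01 for Cdk4, -0.20 to 0.21 for Cdk6, -0.12 to 0.16 for Ccnd1 and -0.10 to 0.00 for Ccnd2. It ran from -0.20 to 1.58 for Ccne2, -0.04 to 0.33 for Rbl2, -0.08 to 0.26 for Ccne1, -0.11 to 0.03 for Ccna2, -0.11 to 0.29 for Ets1 and -0.10 to 0.12 for Mtap. The set difference ran from -0.11 to 0.02 for Cdkn1b and -0.04 to 0.07 for Rb1. Of 227 Cdh1 values of named genes 196 kept their sign and side of the threshold, and of 187 set values 136 did. A further 3 set values, means of a gene's probes without a test, kept their sign and were counted apart because their size moved. Apart from such means, values of the brightest probe stand for each gene here, and the cause of each change was not tested.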
